A study of Mus musculus with 22 samples.

Results

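The cytochrome P450 family 4 genes measured here were 8 mouse liver genes, Cyp4a10, Cyp4a12a, Cyp4a14, Cyp4b1, Cyp4f13, Cyp4f14, Cyp4f15 and Cyp4v3. They were taken by name, with every probe set annotated to them on the array. They had 9 probe sets among 45101, and 7 of the 8 genes had a probe set of their own among 18194 named genes. Cyp4a10 was covered by a single probe set that is also annotated to Cyp4a31, a closely related gene of the same cluster, so its signal is given as Cyp4a10/Cyp4a31 and was tested in the fit over all probe sets. Cyp4v3 had 2 probe sets, and each of the other 6 genes had 1.

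Each of 22 mouse livers was hybridised to 1 one-colour oligonucleotide array, and every signal is on a linear scale in arbitrary units. At 5 weeks of age there were 4 Trim24-/-, 4 Trim24-/- Rara+/- and 4 wild-type (WT) animals. At 14 weeks there were 5 Trim24-/- and 5 WT animals. Trim24, a co-regulator of nuclear receptors, was disrupted on both alleles throughout the body rather than in a chosen cell type, and Trim24-/- Rara+/- mice also lacked 1 allele of Rara, the gene for retinoic acid receptor alpha. All animals came from crosses on a mixed background of C57BL/6 (60%) and 129/Sv (40%). No group with 1 Rara allele and intact Trim24 was measured, so every value for Trim24-/- Rara+/- livers comes from animals that also lack Trim24. Sex is not given in the labels used here. Single livers are named by the ending of their label, such as liver_395M.

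Family 4 cytochromes sit in the membrane of the endoplasmic reticulum and add a hydroxyl group at or near the methyl end of fatty acids and eicosanoids. The products are oxidised further to dicarboxylic acids, which are then shortened in peroxisomes, and this route is drawn on in liver when fatty acids are plentiful, as in fasting. The Cyp4a genes of rodents are textbook targets of PPARa, the fatty acid-sensing nuclear receptor, and in mouse liver Cyp4a12a is predominantly male whereas Cyp4a10 and Cyp4a14 are higher in females. The Cyp4f enzymes act on leukotrienes and other eicosanoids, and Cyp4v3 is the mouse counterpart of human CYP4V2, the gene mutated in Bietti crystalline dystrophy of the retina.

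Promoter sequences from RefSeq (build GRCm38.p6, 250 bases before to 50 bases after the annotated start) were at hand for 5 of the 8 genes. That of Cyp4v3 is shown because this gene was higher than in WT in each mutant group, and that of Cyp4f15 because it is a family member expressed in the same livers that was called in no comparison between genotypes. The Cyp4v3 window is chr8:45333114-45333413 on the minus strand and the Cyp4f15 window is chr17:32685409-32685708 on the plus strand. Both are printed 5′ to 3′ along the gene, and capitals mark a match on the opposite strand to the core of the interferon-stimulated response element (GAAA, any 2 bases and GAAA again).
Cyp4v3: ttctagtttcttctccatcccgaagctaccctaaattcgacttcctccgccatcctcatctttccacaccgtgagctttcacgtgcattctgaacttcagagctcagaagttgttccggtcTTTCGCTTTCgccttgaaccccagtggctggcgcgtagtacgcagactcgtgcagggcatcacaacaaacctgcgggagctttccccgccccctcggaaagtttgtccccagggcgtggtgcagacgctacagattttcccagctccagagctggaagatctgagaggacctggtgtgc
Cyp4f15: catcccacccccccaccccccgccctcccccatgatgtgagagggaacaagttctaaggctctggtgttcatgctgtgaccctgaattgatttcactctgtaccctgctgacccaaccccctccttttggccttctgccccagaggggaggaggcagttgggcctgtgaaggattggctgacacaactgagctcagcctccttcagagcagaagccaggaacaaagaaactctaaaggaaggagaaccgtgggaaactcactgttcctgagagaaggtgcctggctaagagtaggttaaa
The match in the Cyp4v3 window covers bases 122 to 131 of the 300 bases, and 3.44% of the 32851 mouse promoter windows of this length held at least 1 match on either strand. Neither window held the nuclear receptor half-site AGGTCA (found in 16.3% of windows), its direct repeats with a spacing of 1, 2 or 5 bases (0.0396%, 0.00913% and 0.00913%), the STAT palindrome TTCNNNGAA (8.3%) or the TATA core TATAAA (13.6%). Every direct repeat counted also holds the half-site. These matches describe letters in a short window and show nothing about binding.

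Genes were tested as log2(signal + 16) with limma over all named genes. A called gene is one whose p, adjusted over all of them by Benjamini-Hochberg, was under 0.05. Adding 16 to every signal understates the fold changes of dim genes. The 3 comparisons at 5 weeks share arrays, including the WT arrays, so their values are set side by side and not combined. The hepatocyte markers, of which 10 of 12 were measured, had a mean level between 11.66 and 12.48 on the log2 scale on the 22 arrays. RNA came from whole liver, in which fewer cells of a type and less RNA per cell cannot be told apart. The probe sets for Trim24 and Rara did not show the disruptions. Trim24 had a signal of 305 to 488 in Trim24-/- livers, 399.8 to 473 in Trim24-/- Rara+/- livers and 191 to 459 in WT livers at 5 weeks, and Rara read 1.23 to 31.6 on all arrays at that age. The sources used here do not state where these probe sets lie relative to the disrupted parts, and they check no genotype.

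In Trim24-/- livers at 5 weeks, Cyp4v3 was higher and Cyp4a14 lower than in WT, and no other gene of the family was called. Thus 2 of the 7 genes were called, 1 in each direction, where 0.599% of all genes were called. Likewise 2 of the 7 genes, and 5.52% of all genes, had groups that did not overlap. The median log2 difference over the 7 genes was 0.16, beside -0.01 over all genes.

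The probe set used for Cyp4v3 had signals of 5411, 4296, 5264 and 4022 in the 4 Trim24-/- livers at 5 weeks, of 4988, 5077, 4942 and 5187 in the 4 Trim24-/- Rara+/- livers and of 2052, 2517, 2482 and 1979 in the 4 WT livers. All 8 mutant livers lay above all 4 WT livers. Cyp4v3 was 2.09-fold higher in Trim24-/- than in WT livers, a log2 difference of 1.06 ± 0.12 (SE, adjusted p = 0.00269, limma). In Trim24-/- Rara+/- livers it was 2.24-fold higher than in WT (log2 difference 1.16 ± 0.12, adjusted p = 0.00116). It was the 1 gene of 7 called in that comparison, in which 0.0550% of all genes were called, and 1 of 7 had groups that did not overlap, beside 4.62% of all genes.

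The second Cyp4v3 probe set gave signals of 2972, 2652, 2909.9 and 2467 in Trim24-/- livers, of 2723, 3624, 3487 and 2879 in Trim24-/- Rara+/- livers and of 1137, 1586, 1337 and 1091 in WT livers at 5 weeks. It separated the mutant from the WT livers in the same way. Its log2 differences from WT were 1.10 ± 0.14 in Trim24-/- livers (adjusted p = 0.00759 over all probe sets, limma) and 1.30 ± 0.14 in Trim24-/- Rara+/- livers (adjusted p = 0.00199). Over all probe sets, 0.233% were called in Trim24-/- and 0.0310% in Trim24-/- Rara+/- livers against WT. The call of the main probe set in Trim24-/- Rara+/- livers was lost under 1 of 26 alternatives. There, liver_54R, liver_66R and liver_82R of that group were averaged into 1 (log2 difference 1.15, adjusted p = 0.0779, limma). That averaging left only their mean and liver_73R in the group.

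Between the mutants, Cyp4v3 was not called. The log2 difference between Trim24-/- Rara+/- and Trim24-/- livers was 0.10 ± 0.12 (95% interval -0.16 to 0.36, adjusted p = 0.827, limma) for the main probe set and 0.20 ± 0.14 (-0.10 to 0.50) for the second. The 4 Trim24-/- Rara+/- livers lay within the range of the 4 Trim24-/- livers for the main probe set. This does not show that the 2 genotypes have the same level, but a difference larger than the upper bounds of these intervals lay outside them.

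At 14 weeks Cyp4v3 was again higher without Trim24. The main probe set had signals of 5017, 4701, 4492, 4834 and 3656 in the 5 Trim24-/- livers and of 1854, 2244, 2405, 2526 and 2414 in the 5 WT livers. The lowest Trim24-/- array, liver_395M, was above the highest WT array, liver_464WT. The gene was 1.98-fold higher in Trim24-/- livers (log2 difference 0.98 ± 0.12, adjusted p = 0.00433, limma). It was the 1 gene of 7 called, where 0.242% of all genes were called, and the groups did not overlap for 1 of 7, beside 1.78% of all genes. The second probe set was 2.45-fold higher (log2 difference 1.29 ± 0.16, adjusted p = 0.00732, where 0.124% of all probe sets were called), with signals of 2538 to 3424 in Trim24-/- livers and of 842 to 1489 in WT livers.

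**Figure D1:**
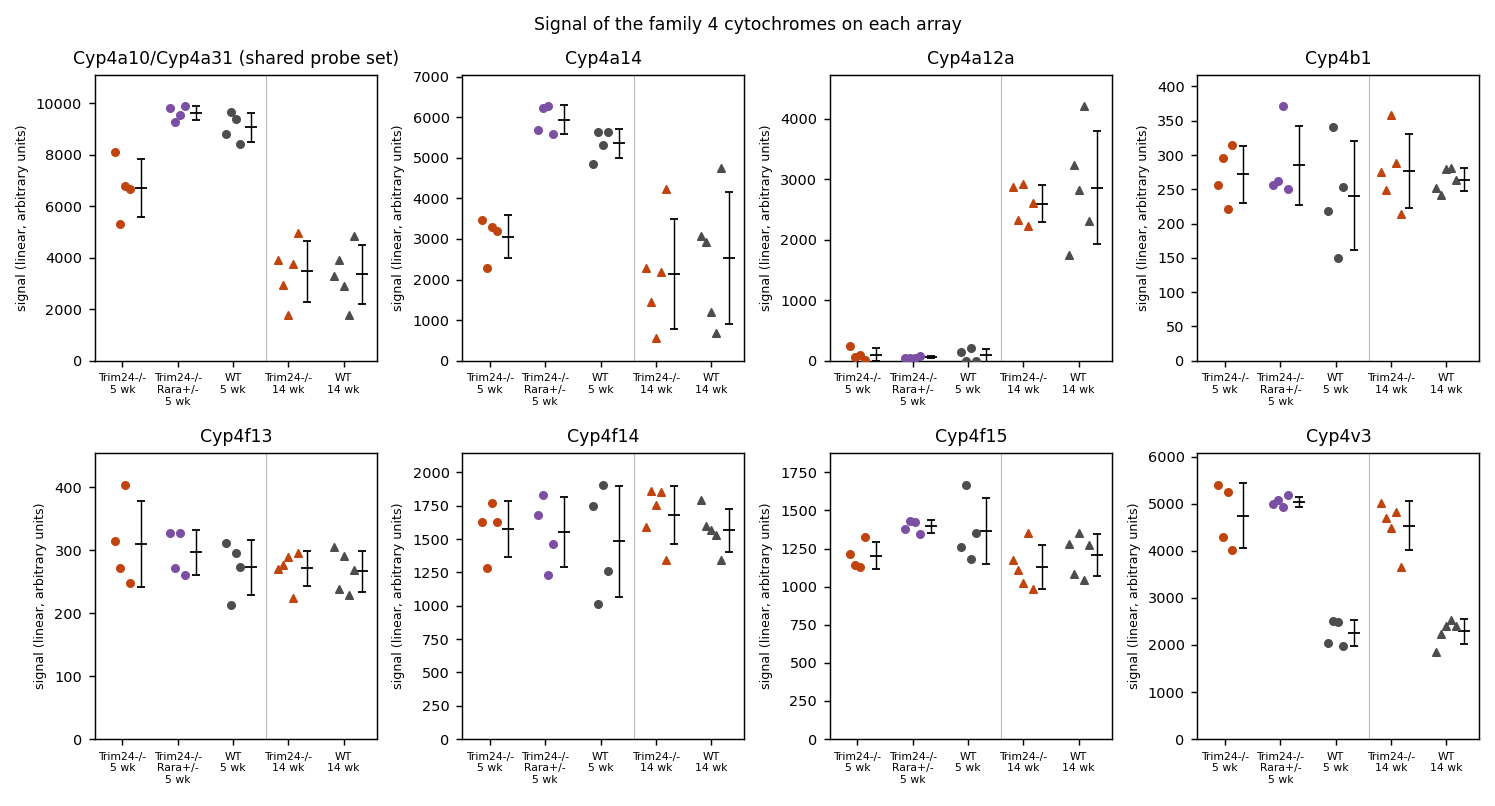
Signal (linear, arbitrary units) of each family 4 gene on each of the 22 arrays, with circles for 5 weeks and triangles for 14 weeks, and with the mean and SD of each group beside its points. All Trim24-/- and Trim24-/- Rara+/- livers lie above all WT livers of their age for Cyp4v3, the Cyp4a14 signal is lower in Trim24-/- than in the other groups at 5 weeks, and Cyp4a12a is at 1745 or above at 14 weeks and at 247 or below at 5 weeks.

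Cyp4a14, a fatty acid hydroxylase that responds strongly to PPARa, went the other way at 5 weeks. Its signals were 3475, 2284, 3290.2 and 3195 in Trim24-/- livers, 5676, 6219.8, 6269.5 and 5589 in Trim24-/- Rara+/- livers and 4856, 5633, 5309 and 5626 in WT livers. The 4 Trim24-/- livers were below every other liver of that age, and the Trim24-/- Rara+/- and WT livers overlapped. In Trim24-/- livers the signal was 0.567 times that in WT, a log2 difference of -0.82 ± 0.13 (adjusted p = 0.0191, limma). In Trim24-/- Rara+/- livers it was 1.96-fold higher than in Trim24-/- livers (log2 difference 0.97 ± 0.13, adjusted p = 0.0226). It was the 1 gene of 7 called between those mutants, where 0.143% of all genes were called, and the median over the 7 genes was 0.06, beside -0.01 over all genes.

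Against WT, Cyp4a14 in Trim24-/- Rara+/- livers had a log2 difference of 0.15 ± 0.13 (95% interval -0.13 to 0.43, adjusted p = 0.870, limma), so a return to the WT level and a small excess over it could not be separated. Both Cyp4a14 calls lay close to the threshold. Without WT liver_44WT, WT liver_45WT or Trim24-/- liver_8KO, the call between Trim24-/- and WT was lost (adjusted p = 0.0583, 0.0633 and 0.0514), while the log2 difference stayed between -0.79 and -0.86. Without Trim24-/- liver_8KO or Trim24-/- Rara+/- liver_54R, liver_66R or liver_82R, the call between the mutants was lost (adjusted p = 0.0645, 0.121, 0.115 and 0.109), with log2 differences between 0.95 and 1.01. Adding 1 in place of 16 to the signals, or fitting other sets of arrays together, ended both calls without changing either direction.

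The shared Cyp4a10/Cyp4a31 probe set followed the same order of groups with a smaller difference that was not called. Its signals were 8085, 5326, 6774 and 6652 in Trim24-/- livers, 9796, 9249, 9538 and 9874 in Trim24-/- Rara+/- livers and 8783, 9649, 9373 and 8422 in WT livers. The Trim24-/- livers were again below all others at 5 weeks. The log2 difference from WT was -0.45 ± 0.12 in Trim24-/- livers (adjusted p = 0.205 over all probe sets, limma), and that between Trim24-/- Rara+/- and Trim24-/- livers was 0.53 ± 0.12 (adjusted p = 0.141). Between Trim24-/- Rara+/- and WT livers it was 0.09 ± 0.12 (adjusted p = 0.940).

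Part of that signal can come from Cyp4a31, which also had 2 probe sets of its own. They read 292 to 636 and 68.9 to 103 in Trim24-/- livers, 1194 to 1319.8 and 204 to 295 in Trim24-/- Rara+/- livers, and 305 to 631 and 57.7 to 113 in WT livers. On both, the Trim24-/- Rara+/- livers lay above every other liver of that age, and the Trim24-/- and WT livers overlapped, unlike the shared probe set. Between Trim24-/- Rara+/- and Trim24-/- livers, the dimmer one was called (log2 difference 1.20 ± 0.19, adjusted p = 0.0468, limma over all probe sets, of which 0.0643% were called), and the brighter one was not (1.30 ± 0.26, adjusted p = 0.114). Against WT neither was called, with log2 differences of 1.17 and 1.52 (adjusted p = 0.0773 and 0.104). How much of the shared signal belongs to Cyp4a10 was not tested.

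**Figure D2:**
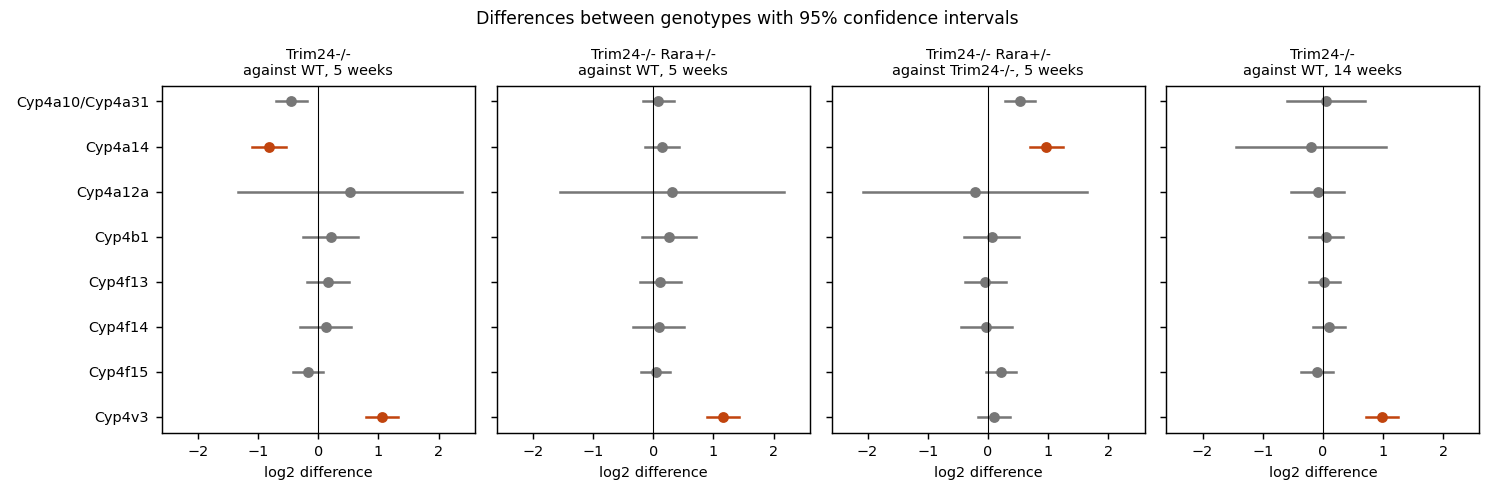
Log2 differences with 95% confidence intervals from limma for the 8 signals in the 4 comparisons between genotypes, with called genes in orange. Cyp4v3 stands at 1.06, 1.16 and 0.98 in the comparisons with WT and at 0.10 between the mutants, whereas Cyp4a14 stands at -0.82 in Trim24-/- against WT and at 0.97 in Trim24-/- Rara+/- against Trim24-/-.

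Set against each other on each array, Cyp4a14 and Cyp4v3 separated the 3 genotypes at 5 weeks. The log2 value of Cyp4a14 minus that of Cyp4v3 was -0.64 ± 0.24 in Trim24-/- livers, 0.23 ± 0.11 in Trim24-/- Rara+/- livers and 1.25 ± 0.18 in WT livers (SD, n = 4 each). The ranges were -0.91 to -0.33, 0.11 to 0.34 and 1.09 to 1.50, in the same order, and no group overlapped another. The Trim24-/- Rara+/- livers, between the others in this difference, lay within the range of Trim24-/- livers for Cyp4v3. For Cyp4a14, 3 of these 4 livers lay above the highest WT liver and liver_82R lay within the WT range. Since the probe sets differ in how they bind RNA, the point at which the difference is 0 has no meaning, and only the shift between groups can be read. The pair was chosen with its values known, so these values are given without a test.

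At 14 weeks the same difference was -1.34 ± 1.14 in Trim24-/- livers (-2.95 to 0.21) and -0.16 ± 1.23 in WT livers (-1.88 to 0.97, SD, n = 5 each), and the groups overlapped. The wide spread came from Cyp4a14 and not from Cyp4v3. The SD of the log2 value was 1.06 in Trim24-/- and 1.13 in WT livers for Cyp4a14, but 0.18 and 0.17 for Cyp4v3.

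**Figure D3:**
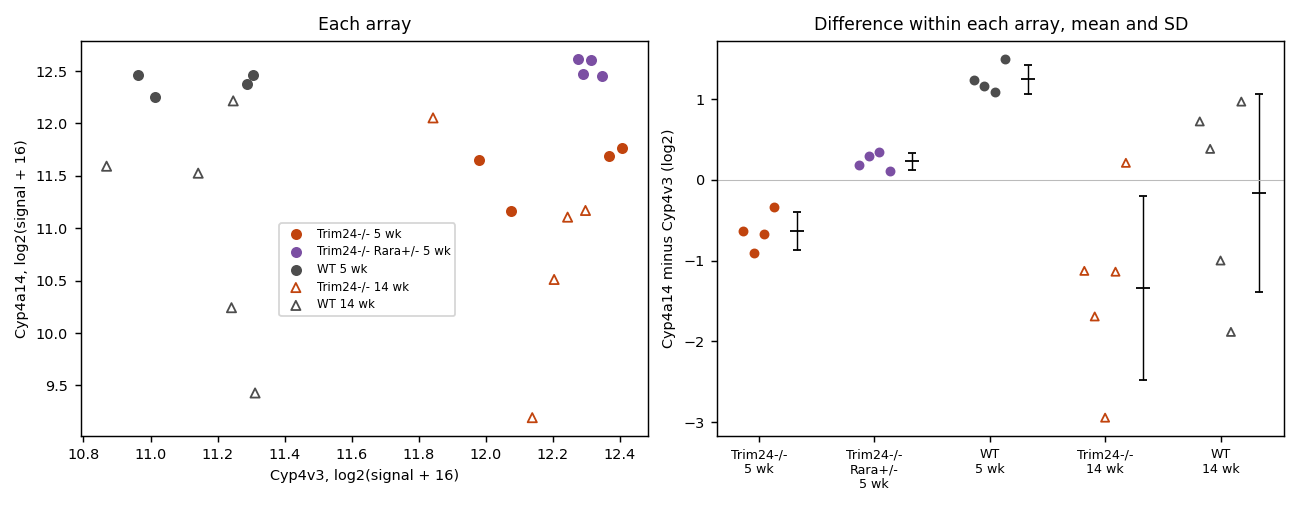
Left, the log2(signal + 16) of Cyp4a14 against that of Cyp4v3 on each array, and right, their difference on each array with the mean and SD of each group. The Trim24-/-, Trim24-/- Rara+/- and WT livers at 5 weeks form separate groups with means of -0.64, 0.23 and 1.25, while the 14-week livers spread along the Cyp4a14 axis.

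Cyp4a14 signals at 14 weeks were 2288, 1444, 569, 2188 and 4233 in Trim24-/- liver_648M, liver_466M, liver_463M, liver_411M and liver_395M, and 3071, 2932, 1195, 673 and 4739 in WT liver_616WT, liver_611WT, liver_613WT, liver_464WT and liver_393WT. The lowest and highest animals differed several-fold within each genotype, and the groups overlapped over nearly their whole range. The log2 difference was -0.19 ± 0.57 (95% interval -1.44 to 1.06, adjusted p = 0.966, limma), an interval that contains the difference seen at 5 weeks. The shared Cyp4a10/Cyp4a31 probe set read 3925, 2953, 1785, 3756 and 4939 in the same Trim24-/- animals and 3283, 3900.2, 2911, 1785 and 4860.5 in the same WT animals, with a log2 difference of 0.05 ± 0.30 (adjusted p = 0.990).

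Both signals were highest in Trim24-/- liver_395M and WT liver_393WT and lowest in Trim24-/- liver_463M and WT liver_464WT. Whether the genotype difference itself changed with age was tested as an interaction, and 0 of the 7 genes were called there by limma, where 0.0330% of all genes were called. None had an unadjusted p under 0.05 either. The median over the 7 genes was 0.03 between the genotypes at 14 weeks, beside 0.00 over all genes. The interaction was 0.63 ± 0.65 for Cyp4a14 (adjusted p = 0.934) and -0.08 ± 0.17 for Cyp4v3 (adjusted p = 0.973).

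**Figure D4:**
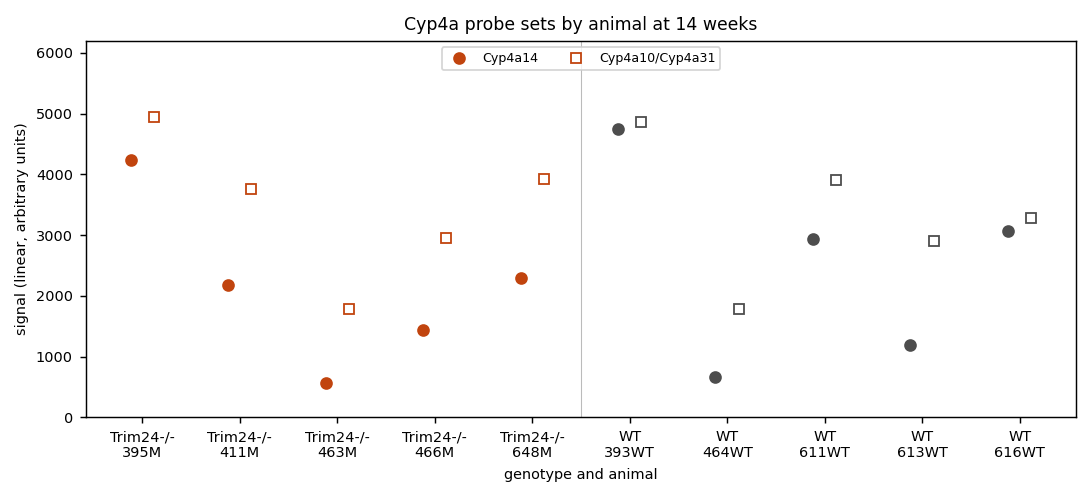
Signal (linear, arbitrary units) of Cyp4a14 (filled circles) and of the shared Cyp4a10/Cyp4a31 probe set (open squares) in each 14-week animal, Trim24-/- in orange and WT in grey. Both are highest in liver_395M and liver_393WT and lowest in liver_463M and liver_464WT, and the 2 genotypes cover similar ranges.

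The other 5 genes of the family were called in no comparison between genotypes. Cyp4a12a, the androgen-dependent fatty acid hydroxylase of male mice, was dim at 5 weeks, with signals of 247, 67.5, 89.7 and 5.83 in Trim24-/- livers, of 52.3, 52.4, 46.6 and 80.2 in Trim24-/- Rara+/- livers and of 142, 1.78, 213 and 2.24 in WT livers. The groups overlapped, and the spread in Trim24-/- and in WT livers was wider than any difference between them (log2 difference 0.53 ± 0.86, adjusted p = 0.881, limma). At 14 weeks it read 2236 to 2924 in Trim24-/- livers and 1745 to 4208 in WT livers (log2 difference -0.09 ± 0.20, not called).

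Cyp4f14, which hydroxylates leukotriene B4, had signals of 1281 to 1773 in Trim24-/- livers, of 1233 to 1833 in Trim24-/- Rara+/- livers and of 1013 to 1908 in WT livers at 5 weeks. Its log2 difference between Trim24-/- and WT livers was 0.12 ± 0.20 at 5 weeks (adjusted p = 0.880, limma) and 0.10 ± 0.12 at 14 weeks (adjusted p = 0.889). Cyp4f13, another member of the Cyp4f cluster, read 248 to 404 in Trim24-/- livers, 260.0 to 328 in Trim24-/- Rara+/- livers and 212 to 311 in WT livers at 5 weeks. For both genes all groups overlapped.

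Cyp4f15, which lies in the same cluster, read 1216, 1139, 1132 and 1326 in Trim24-/- livers and 1381, 1434, 1423 and 1343 in Trim24-/- Rara+/- livers, with 1181 to 1669.8 in WT livers. The 2 mutants did not overlap, and the Trim24-/- Rara+/- livers were higher by 0.21 ± 0.11 on the log2 scale, which was not called (adjusted p = 0.507, limma). Non-overlap between these mutants was found for 2 of the 7 genes, Cyp4f15 and Cyp4a14, beside 8.46% of all genes. The WT livers spanned both groups for Cyp4f15.

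Cyp4b1, known best from lung and as an enzyme that hydroxylates shorter fatty acids and activates some toxic compounds, read 221 to 315 in Trim24-/- livers, 250.4 to 371 in Trim24-/- Rara+/- livers and 150.1 to 341 in WT livers at 5 weeks. At 14 weeks it read 213 to 358 in Trim24-/- livers and 242 to 282 in WT livers. Its log2 differences from WT were 0.21 ± 0.21 and 0.26 ± 0.21 in the 5-week mutants and 0.05 ± 0.13 at 14 weeks, with adjusted p between 0.782 and 0.961 (limma). For these 5 genes the 95% intervals of Trim24-/- against WT at 14 weeks all lay between -0.53 and 0.36.

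Between ages, in WT livers, 2 of the 7 genes were called at 14 against 5 weeks, where 28.3% of all genes were called. That share is near the one over all genes, so the count says nothing particular about the family. The groups did not overlap for 2 of 7, beside 19.1% of all genes. The called genes were Cyp4a12a, higher at 14 weeks, and Cyp4a14, lower. Cyp4a12a averaged 2865 ± 934 at 14 weeks (SD, n = 5) and 89.6 ± 105 at 5 weeks (SD, n = 4), a log2 difference of 5.56 ± 0.64 (adjusted p = 5.05e-06, limma), and between 4.48 and 6.90 under the alternatives. Cyp4a14 averaged 2522 ± 1625 at 14 weeks and 5356 ± 366 at 5 weeks, a log2 difference of -1.39 ± 0.46 (adjusted p = 0.0281).

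The Cyp4a14 difference between ages lost its call without WT liver_44WT, liver_45WT or liver_90WT of 5 weeks (adjusted p = 0.0588, 0.0527 and 0.0578) or WT liver_613WT or liver_464WT of 14 weeks (0.0695 and 0.0833). The shared Cyp4a10/Cyp4a31 probe set averaged 3348 ± 1144 at 14 weeks and 9057 ± 557 at 5 weeks, and its groups did not overlap (log2 difference -1.50 ± 0.24, adjusted p = 0.000205, limma, where 23.3% of all probe sets were called). Cyp4v3 was at 2289 ± 263 at 14 weeks and 2258 ± 281 at 5 weeks (log2 difference 0.02 ± 0.12, adjusted p = 0.921).

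Age could not be told apart from sex or from other differences between the arrays. Xist, the RNA of the inactive X chromosome, read 13.4 to 44.5 in the 10 livers of 14 weeks, against 948 to 2169 in the 12 livers of 5 weeks. The Y-linked Eif2s3y read 245 to 344 at 14 weeks and 0.35 to 6.59 at 5 weeks. By Xist and Eif2s3y, every liver of 5 weeks read as female and every liver of 14 weeks as male. Values across ages, the interaction included, therefore hold sex as well as age. Of 12 male-biased liver genes measured beside Cyp4a12a, 10 were called higher in WT at 14 weeks, and of 15 female-biased genes 13 were called lower. In that comparison 28.3% of all genes were called in either direction. Median signal per array was 19.7 to 25.9 at 14 weeks and 12.6 to 16.1 at 5 weeks, although all arrays had the same trimmed mean. The part of these differences in the Cyp4a values between ages was not tested, and every comparison between genotypes was made within 1 age.

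Enzymes of fatty acid oxidation were read beside the family. Of 27 measured genes of peroxisomal and mitochondrial beta-oxidation, 25 had a negative and 2 a positive log2 difference between Trim24-/- and WT livers at 5 weeks (median -0.20, beside -0.01 over all genes). Only Ehhadh, the peroxisomal bifunctional enzyme (-0.76 ± 0.14, adjusted p = 0.0351, limma), and Hsd17b4, the other bifunctional enzyme of peroxisomes (-0.50 ± 0.10, adjusted p = 0.0499), were called. In that comparison 0.599% of all genes were called. Between Trim24-/- Rara+/- and Trim24-/- livers, 23 of the 27 were positive (median 0.25), and none was called. An unadjusted p under 0.05 was found for 9 of them (limma), and the share of all genes under it was not computed. Between Trim24-/- Rara+/- and WT livers the median was 0.06 and 18 were positive.

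Of 19 measured targets of PPARa outside that list, Acot1, a cytosolic acyl-CoA thioesterase, was called lower in Trim24-/- than in WT livers at 5 weeks (-1.65 ± 0.29, adjusted p = 0.0271, limma) and higher in Trim24-/- Rara+/- than in Trim24-/- livers (1.88 ± 0.29, adjusted p = 0.0275). In those comparisons, 0.599% and 0.143% of all genes were called. The Acot1 signals were 120 to 369 in Trim24-/- livers, 697 to 1052 in Trim24-/- Rara+/- livers and 571 to 1021 in WT livers. The median of the 19 genes was -0.23 in Trim24-/- against WT, 0.04 in Trim24-/- Rara+/- against WT and 0.28 between the mutants. Acot1 and Ehhadh were, like Cyp4a14, lowest in Trim24-/- livers at 5 weeks. None of the 10 measured genes for PPARa and its partner receptors and co-regulators was called in a comparison between genotypes, and neither was any of 13 genes for the alcohol and aldehyde dehydrogenases and the electron donors of cytochrome P450.

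At 14 weeks, 21 of the 27 beta-oxidation genes had a negative difference between Trim24-/- and WT livers (median -0.13), and none of these or of the 19 other PPARa targets was called. In the 2 animals with the highest Cyp4a14 signal, Acot1 read 1893 (Trim24-/- liver_395M) and 1639.6 (WT liver_393WT), against 206 to 563 in the other Trim24-/- and 371 to 516 in the other WT livers. Ehhadh was likewise highest in these animals, at 3459 and 2877, and lowest in liver_463M and liver_464WT, at 1466 and 1479.9. Not all of these genes followed the order of Cyp4a14. The lowest Trim24-/- signal of Acot1 was in liver_411M, at 206, and Hsd17b4 was at its lowest among Trim24-/- livers in liver_395M, at 2221, and at its highest among WT livers in liver_393WT, at 3069.9.

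Among 17 other enzymes of fatty acid and eicosanoid metabolism, Cyp2u1, a fatty acid hydroxylase of another P450 family, was called higher than in WT in Trim24-/- livers at 5 weeks (2.48 ± 0.22, adjusted p = 0.000320, limma), in Trim24-/- Rara+/- livers (1.51 ± 0.22, adjusted p = 0.0336) and in Trim24-/- livers at 14 weeks (1.05 ± 0.17, adjusted p = 0.0249). Cyp2u1 was the 1 gene of this list called in those comparisons, where 0.599%, 0.0550% and 0.242% of all genes were called. Of 6 other Cyp4 genes measured, Cyp4a31 included, none was called between genotypes in the fit over named genes.

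Genes biased between the sexes were read in the same comparisons. These lists, like the others, were chosen with earlier results of these data known, so their counts are a description and not a test. Cyp2u1 is counted both here and among the fatty acid and eicosanoid enzymes. Of the 12 male-biased genes, 5 were called higher in Trim24-/- than in WT livers at 5 weeks (0.599% of all genes were called in either direction), 3 in Trim24-/- Rara+/- than in WT livers (0.0550%) and 1, Cyp2u1, at 14 weeks (0.242%), and none was called lower. Cyp7b1, the oxysterol hydroxylase, was 4.96-fold higher in Trim24-/- than in WT livers at 5 weeks. Of the 15 female-biased genes, Sult2a2, a sulfotransferase of bile acids and steroids, was the 1 gene called in Trim24-/- livers at 5 weeks, where it was lower (-2.75 ± 0.43, adjusted p = 0.0191, limma), and 9 of the 15 had negative differences (median -0.17). At 14 weeks none was called and 14 of the 15 had positive differences (median 0.26). The interaction of genotype and age was called for Sult2a2 (3.01 ± 0.49, adjusted p = 0.0127, limma), where 0.0330% of all genes were called. It was also called for the male-biased C6 (-2.52 ± 0.31, adjusted p = 0.000400). The median interaction was 0.58 over the 15 female-biased and -0.66 over the 12 male-biased genes. These values hold sex as well as age, and the levels themselves differed. Between WT livers of 14 and 5 weeks the median log2 difference was -2.59 over the female-biased and 1.93 over the male-biased genes. Between WT livers of 14 and 5 weeks, Sult2a2 itself had a log2 difference of -7.63 ± 0.35, so its level was far lower at 14 weeks. Cyp4a12a, a male-biased gene of the family, showed no such call, and the part of these genes in the lower signal of the female-biased Cyp4a14 was not tested.

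Markers of other liver cells were compared in the same way. Summed signal of 15 macrophage markers was 6947 to 14298 in Trim24-/- livers, 6969 to 11285 in Trim24-/- Rara+/- livers and 5105 to 10255 in WT livers at 5 weeks, and 5459 to 10285 in Trim24-/- and 4799 to 6150.2 in WT livers at 14 weeks. Of these 15 markers, 13 had positive log2 differences between Trim24-/- and WT livers at 5 weeks (median 0.37). Between Trim24-/- Rara+/- and WT livers 14 were positive (median 0.20). At 14 weeks all 15 were positive between Trim24-/- and WT livers (median 0.44), 9 of them with an unadjusted p under 0.05 (limma). The share of all genes under that p was not computed. Mpeg1 was the 1 macrophage marker called, in Trim24-/- livers at 5 weeks, where 0.599% of all genes were called. No macrophage marker was below the added 16 on every array.

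No hepatocyte, endothelial, stellate, cholangiocyte, T or NK cell or kidney marker was called between genotypes, but several lists leaned to 1 side. Between Trim24-/- Rara+/- and Trim24-/- livers all 11 endothelial markers were positive (median 0.29) and all 9 T and NK cell markers negative (median -0.22). The T and NK cell markers were dim, which limits what can be read of their signs. Their summed signal at 5 weeks was 94.0 to 260 in Trim24-/- livers and 44.7 to 158 in Trim24-/- Rara+/- livers. In WT livers it was 70.7 to 83.8. At 14 weeks it was 156 to 180 in Trim24-/- and 125 to 143 in WT livers. Against WT at 5 weeks, 9 of the 11 endothelial markers were negative in Trim24-/- livers (median -0.11). All 11 were positive in Trim24-/- Rara+/- livers (median 0.13). Of 10 hepatocyte markers, 8 were negative in Trim24-/- livers (median -0.12) and 7 in Trim24-/- Rara+/- livers (median -0.11) against WT at that age. Between Trim24-/- and WT livers, 8 of 9 T and NK cell markers were positive at each age (medians 0.19 at 5 weeks and 0.11 at 14 weeks), 9 of 11 stellate cell markers were positive at 5 weeks (median 0.41), and all 10 hepatocyte markers were negative at 14 weeks (median -0.16). The part of these markers in the Cyp4v3 and Cyp4a14 differences was not tested.

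Cyp4v3 lies on chromosome 8, the Cyp4a genes and Cyp4b1 on chromosome 4, and the 3 Cyp4f genes on chromosome 17. None of the 3 measured neighbours on each side of these loci was called between genotypes, so the higher signal on chromosome 8 was not shared by a called neighbour. Tlr3, which senses double-stranded RNA and lies beside Cyp4v3 past Fam149a, had a log2 difference of 0.65 ± 0.21 between Trim24-/- and WT livers at 5 weeks (adjusted p = 0.262, limma). Klkb1, on the other side of Cyp4v3, had 0.06 ± 0.17 (adjusted p = 0.936). In the other comparisons Tlr3 did not follow Cyp4v3. It had -0.18 ± 0.21 in Trim24-/- Rara+/- against WT livers (adjusted p = 0.906, limma) and -0.83 ± 0.21 between the mutants (adjusted p = 0.142). At 14 weeks it had 0.23 ± 0.14 in Trim24-/- against WT livers (adjusted p = 0.740).

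Over the 5 group means, the genes most like Cyp4v3 among 8327 candidates were Atp1b3, a subunit of the sodium pump, Slc2a5, a fructose transporter, and Cela1, an elastase, with root mean square differences of 0.10, 0.18 and 0.18 on the log2 scale. Atp1b3 averaged 858 ± 420 in Trim24-/- livers, 1011 ± 126 in Trim24-/- Rara+/- livers and 404 ± 91.2 in WT livers at 5 weeks (SD, n = 4 each), and 911 ± 166 in Trim24-/- and 435 ± 43.1 in WT livers at 14 weeks (n = 5 each). It was called at 14 weeks (log2 difference 1.02 ± 0.13, adjusted p = 0.00553, limma) and not at 5 weeks (adjusted p = 0.184 for Trim24-/- and 0.151 for Trim24-/- Rara+/- against WT).

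The genes most like Cyp4a14 were Sult1d1, a sulfotransferase, Pdk1, which inhibits pyruvate dehydrogenase, and Pcp4l1, with root mean square differences of 0.11, 0.15 and 0.17. Sult1d1 averaged 1615 ± 77.9 in Trim24-/- livers, 2639.7 ± 343 in Trim24-/- Rara+/- livers and 2366 ± 626 in WT livers at 5 weeks, and 865 ± 52.6 in Trim24-/- and 1012 ± 166 in WT livers at 14 weeks. None of these 3 genes was called between genotypes (limma). Likeness over 5 means is a description, in which the difference between ages weighs heavily for Cyp4a14.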

How the data were processed

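The deposited values are linear intensities of 45101 probe sets, with 22 arrays in all. No source used here names the software, background correction or scaling. Per the labels' protocols, RNA of whole liver was amplified and labelled with biotin. Each of 18194 genes was represented by its probe set with the highest mean, and probe sets with several symbols named no gene. The test ran on log2(signal + 16) in limma 3.58.1 (lmFit, eBayes; R 4.3.3) with Benjamini-Hochberg adjustment over all genes or all probe sets. One model held the 12 arrays of 5 weeks, another the 10 of 14 weeks, and the last all 22 for values across ages. Precision is limited by the number of arrays. The labels do not say whether animals shared litters or arrays shared a run. The fit was tested on simulated data. Named genes were the family members, the 3 genes most like Cyp4a14 and Cyp4v3 (mean log2 level of at least 6), up to 4 called genes per list, 3 neighbours per side, and Trim24, Rara, Xist and Eif2s3y. The genes of the family, the lists and some alternatives were chosen with earlier results of these data known. Alternatives covered scaling, pseudocounts of 1 and 64, brightness, probe set choice, variance, arrays fitted and arrays left out. The values of Ehhadh, Acot1 and Hsd17b4 in single 14-week animals were chosen for print after they were seen.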

Additional observations from a re-analysis of the deposited data

Results flagged for a closer look

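In 2 of 50 group checks of the family's signals, 1 animal lay far from the others of its group, where chance gives about 1 in 20. Cyp4b1 read 371 in Trim24-/- Rara+/- liver_73R at 5 weeks, against 250.4 to 262 in the other 3 animals of that group. The second Cyp4v3 probe set read 842 in WT liver_616WT at 14 weeks, against 1333 to 1489 in the other 4 WT animals, which is farther from the Trim24-/- livers, not nearer.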

How the results depend on the processing

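Of 1488 values recomputed for single genes or probe sets, 1399 kept their direction and their side of the threshold. Cyp4v3 stayed called in Trim24-/- against WT at both ages under all alternatives run, with log2 differences of 0.998 to 1.14 at 5 weeks and 0.91 to 1.14 at 14 weeks, while its second probe set lost both calls when 1 was added to the signals (adjusted p = 0.0660 and 0.0549, limma).

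The number of genes called in Trim24-/- against WT at 5 weeks was 1, in place of 2, with a pseudocount of 1, with only the compared arrays, with all 22 arrays and with Trim24-/- Rara+/- liver_54R, liver_66R and liver_82R averaged, and 1 to 2 with any 1 array left out. In each case Cyp4a14 was lost (adjusted p = 0.0656, 0.0910, 0.655 and 0.0557, limma). Between Trim24-/- Rara+/- and Trim24-/- livers it was 0, in place of 1, under the same 4 settings (adjusted p of Cyp4a14 = 0.111, 0.0610, 0.514 and 0.650) and 0 to 1 with 1 array left out. The averaging also gave 0 in place of 1 in Trim24-/- Rara+/- against WT. Between WT ages it was 1, in place of 2, with quantile normalization, with only the compared arrays and without WT liver_90WT and Trim24-/- liver_6KO (adjusted p of Cyp4a14 = 0.0764, 0.0565 and 0.0620), and 1 to 2 with 1 array left out. Centring each array on its median added Cyp4f15 there (log2 difference -0.50, adjusted p = 0.00785). Fits of other arrays use another estimate of the spread, and the causes were otherwise not tested.

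Of these values, 62 changed sign, all for differences that were not called. With 1 array left out, log2 differences in Trim24-/- against WT at 5 weeks ran from -0.044 to 1.18 for Cyp4a12a and from -0.0435 to 0.26 for Cyp4f14. In Trim24-/- Rara+/- against WT they ran from -0.26 to 0.97 for Cyp4a12a, from -0.071 to 0.23 for Cyp4f14 and from -0.021 to 0.14 for Cyp4f15. In Trim24-/- Rara+/- against Trim24-/- they ran from -0.86 to 0.33 for Cyp4a12a, from -0.068 to 0.13 for Cyp4b1, from -0.14 to 0.087 for Cyp4f13 and from -0.12 to 0.077 for Cyp4f14. In Trim24-/- against WT at 14 weeks they ran from -0.16 to 0.27 for Cyp4a10/Cyp4a31, from -0.25 to 0.066 for Cyp4a12a, from -0.59 to 0.21 for Cyp4a14, from -0.046 to 0.13 for Cyp4b1 and from -0.024 to 0.0885 for Cyp4f13. Between WT ages they ran from -0.016 to 0.35 for Cyp4b1, from -0.14 to 0.037 for Cyp4f13, from -0.050 to 0.25 for Cyp4f14, from -0.040 to 0.093 for Cyp4v3 and from -0.087 to 0.13 for its second probe set. The interaction ran from -0.33 to 0.034 for Cyp4b1, from -0.16 to 0.14 for Cyp4f14 and from -0.026 to 0.14 for Cyp4f15.

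Cyp4a12a at 5 weeks also changed sign with a pseudocount of 1 between the mutants (0.017), with 64 in Trim24-/- Rara+/- against WT (-0.050), without WT liver_90WT and Trim24-/- liver_6KO (-0.027 in Trim24-/- and -0.24 in Trim24-/- Rara+/- against WT) and with Trim24-/- liver_1KO and liver_8KO averaged (0.12 between the mutants). That averaging gave 0.030 for Cyp4f13 and 0.011 for Cyp4f14 between the mutants, and 0.014 for the interaction of Cyp4f14. Averaging liver_54R, liver_66R and liver_82R gave -0.010 for Cyp4f14 against WT and 0.0050 for Cyp4f13 between the mutants. Between WT ages, centring gave -0.15 for Cyp4b1, -0.21 for Cyp4f14 and -0.31 for Cyp4v3, quantile normalization gave 0.12 for the second Cyp4v3 probe set, array weights gave 0.0078 for Cyp4f13, and leaving out liver_90WT and liver_6KO gave -0.040 for Cyp4v3. The mean of both Cyp4v3 probe sets gave 0.058 for its interaction. No paired analysis was possible because no animal number is shared between groups.

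Dim signals limit what can be read of Cyp4a12a at 5 weeks, where 3 of 12 arrays read below the added 16. How the authors scaled the arrays is not stated in the labels used here. Every array had the same trimmed mean signal of 100.001 (2% cut from each end), as after a global scaling. A shift common to most genes would not be seen.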
